A study of Mus musculus with 4 samples.

Results

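Matrix metalloproteinases and the inhibitors that hold them in check were followed in vascular smooth muscle cells (VSMCs) of mouse plaques and of ligated carotid arteries. The members are a fixed list of 10 genes, taken by name from the deposited tables: *Mmp2*, *Mmp3*, *Mmp14*, *Timp1*, *Timp2*, *Timp3*, *Adamts1*, *Adamts4*, *Adamts5* and *Ctsk*. They are 10 of the 31765 genes listed for plaque cells and 10 of the 29459 genes listed for ligated carotid cells, and each had UMIs in all 4 libraries. Within the study they bear on whether VSMCs that carry a telomere-damaging TRF2 mutant differ in the transcripts that remodel matrix.

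Both plaque libraries came from C57Bl/6 mice that lacked ApoE, carried the tamoxifen-inducible Myh11-CreERt2 and the multicolour Confetti reporter, received tamoxifen at 6 weeks of age and were then fed a high fat diet. The ApoE-/- library had no further allele, and the Trf2T188A/ApoE-/- library also carried Sm22a-Trf2T188A, a mutant telomere-binding TRF2 driven in arterial VSMCs by a minimal *Sm22a* promoter. Only males carry this Cre, plaques were taken from the aortic root and arch and from carotid arteries, and the authors kept clusters that expressed the reporter. The ligation libraries came from male C57Bl/6 mice aged 4 to 5 months, either wild-type littermates (control) or Sm22a-TRF2T188A carriers (Trf2T188A). Their left common carotid artery was collected 28 days after ligation and freed of adventitia and of sections that had not remodelled. There was 1 library per genotype in each experiment, and the number of mice behind a library is not given in the sources used here. No test across animals was therefore possible, no p-value is given, and every interval below covers counting error alone.

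Collagens, elastin and proteoglycans form the matrix that VSMCs make and later rebuild when an artery is injured or a plaque grows. Matrix metalloproteinases (MMPs) cut this matrix: MMP2 is a gelatinase that also cuts basement membrane collagen, MMP3 is a stromelysin that cuts proteoglycans and activates other MMPs, and MMP14 is a membrane-bound collagenase that activates pro-MMP2. The tissue inhibitors TIMP1, TIMP2 and TIMP3 bind the active site of MMPs. TIMP2 also helps MMP14 to activate MMP2, and TIMP3 is held in the matrix and inhibits ADAMTS proteases as well. ADAMTS1, ADAMTS4 and ADAMTS5 cut versican and aggrecan, the large proteoglycans of the vessel wall and of cartilage, and CTSK (cathepsin K) is a collagen- and elastin-cutting cysteine protease best known from osteoclasts. In plaques, proteases of these families are linked to thinning of the fibrous cap and TIMPs to its preservation. A transcript level does not show how much of a secreted protease is active.

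The promoters of *Mmp3*, *Timp1* and *Adamts1* are shown because these members had the most divergent patterns below: *Mmp3* in a few cells of the modulated states, *Timp1* in most of those cells, and *Adamts1* high in other cells. Each line gives the 250 bases before the gene's start from RefSeq (GRCm38.p6), on the strand of the gene. A search for the AP-1 motif TGANTCA and for the TATA box motif TATAAA, on both strands, is marked by capitals.
Mmp3, chr9:7445572-7445821, plus strand: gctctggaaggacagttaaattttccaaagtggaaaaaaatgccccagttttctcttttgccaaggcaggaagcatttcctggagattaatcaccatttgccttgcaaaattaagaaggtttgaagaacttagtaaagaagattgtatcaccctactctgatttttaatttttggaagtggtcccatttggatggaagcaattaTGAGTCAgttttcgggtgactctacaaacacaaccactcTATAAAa
Timp1, chrX:20869916-20870165, plus strand: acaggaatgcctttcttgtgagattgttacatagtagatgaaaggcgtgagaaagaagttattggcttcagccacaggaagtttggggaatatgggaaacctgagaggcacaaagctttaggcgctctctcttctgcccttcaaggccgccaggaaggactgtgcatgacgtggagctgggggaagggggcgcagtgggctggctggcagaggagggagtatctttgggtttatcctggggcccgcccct
Adamts1, chr16:85803114-85803363, minus strand: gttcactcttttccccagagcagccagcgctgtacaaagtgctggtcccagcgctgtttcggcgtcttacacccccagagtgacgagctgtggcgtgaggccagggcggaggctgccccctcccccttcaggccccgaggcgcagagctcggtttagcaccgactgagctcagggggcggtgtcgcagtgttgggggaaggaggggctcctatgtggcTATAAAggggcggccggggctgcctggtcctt
TGANTCA stood in 2217 of 32851 promoters of this length (6.75%) and, of the 7 members with a promoter in the table, in *Mmp3* alone, as TGAGTCA at bases 46 to 40 before the start. TATAAA stood in 4063 of these promoters (12.4%), in *Mmp3* at bases 7 to 2 and in *Adamts1* at bases 32 to 27 before the start. A match describes these letters only. *Mmp2*, *Adamts4* and *Adamts5* were not in the promoter table.

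In GRCm38 the members lie on 9 chromosomes, and *Adamts1* (chromosome 16, 85793827 to 85803113) and *Adamts5* (chromosome 16, 85856173 to 85901828) are neighbours on the minus strand. *Timp1* (chromosome X, 20870166 to 20874735) lies within *Syn1*, and *Timp3* (chromosome 10, 86300372 to 86349506) within *Syn3*, each on the opposite strand. *Timp2* (chromosome 11, 118301069 to 118355740) overlaps *Cep295nl* on the same strand, so reads of this pair could be shared. The other members are *Mmp2* (chromosome 8, 92827291 to 92853420), *Mmp3* (chromosome 9, 7445822 to 7455975), *Mmp14* (chromosome 14, 54431612 to 54445364), *Adamts4* (chromosome 1, 171250421 to 171260637) and *Ctsk* (chromosome 3, 95499256 to 95509362).

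The libraries held 1502 ApoE-/- and 929 Trf2T188A/ApoE-/- plaque cells with median depths of 22765.5 and 24377 UMIs, and 4967 control and 5392 Trf2T188A ligation cells with 8631 and 11153 UMIs. Of the cell barcodes, 0 were shared by the plaque libraries and 10 by the ligation libraries. Cells were clustered without the members among the variable genes, and clusters were named from marker lists that hold no member. In plaques this gave contractile-like cells (491 ApoE-/- and 250 Trf2T188A/ApoE-/- cells), fibromyocyte-like cells led by *Timp1* itself and then by *Spp1* and *Thbs1* (161 and 128), acute phase-like cells led by *C3* and *Lcn2* (111 and 80), chondrocyte-like cells led by *Col2a1* and *Ibsp* (81 and 63), and smaller classes named by their markers *Itih4* and *Wnt16* (221 and 170), *Adamtsl1* (42 and 40) and *Pln* and *Notch3* (41 and 21). An adventitial fibroblast-like cluster held 21 ApoE-/- cells and 1 Trf2T188A/ApoE-/- cell, and 3 clusters stayed unnamed. Ligation cells were contractile-like (1663 control and 2381 Trf2T188A cells), remodelling (2025 and 1861), de-differentiated (1079 and 951), interferon-responsive (115 and 61), endothelial-like (62 and 65) or myeloid-like (19 and 58), with 19 cells led by *Stmn1* and *Top2a* unnamed. *Terf2*, which encodes TRF2, did not separate the genotypes: its mean level was 0.189 UMIs per 10000 in ApoE-/- and 0.180 in Trf2T188A/ApoE-/- plaque cells, and 0.180 in control and 0.164 in Trf2T188A ligation cells. Whether the 3′ tag reads the transgene is not given in the sources used here.

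Levels below are mean UMIs per 10000 UMIs of a cell. A UMI marks 1 molecule at its 3′ end, so levels of different genes were set side by side without division by length. Differences are log2 ratios of 2 such means with 1 added to each, which understates the change of low genes, and the plain ratio of the means is given beside them where they matter. Between states a ratio of 0.5 on the log2 scale counted as past the fold used, and between genotypes a ratio of 0.25, counting genes with a UMI in 10% or more of the cells on 1 of the sides.

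Inhibitor transcripts far outnumbered MMP transcripts in both experiments. *Timp3* was the most abundant member, with 15.7 UMIs per 10000 in all ApoE-/- and 15.1 in all Trf2T188A/ApoE-/- plaque cells, and 9.75 and 9.95 in all control and Trf2T188A ligation cells. *Timp2* followed with 6.12 and 6.73 in plaques and 8.16 and 8.21 after ligation. *Timp1* had 4.06 and 4.38 in plaques but 0.978 and 1.02 after ligation, where *Adamts1* exceeded it with 4.34 and 4.26. The aggrecanase gene *Adamts4* was the least abundant, at 0.0569 and 0.0628 in plaques and 0.0450 and 0.0334 after ligation. The experiments differ in vessel, diet, dissection and processing, and these values are set side by side without a comparison.

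In plaques, the modulated VSMC states held more transcripts of most members than contractile-like cells did. In fibromyocyte-like cells 7 of 10 members were past the fold upwards, as were 3.51% of all 11290 genes detected there, and 0 were past it downwards (3.53% of all genes). The median log2 ratio was 1.29 over the members and 0.00080 over all detected genes. The same 7 members were past the fold within the ApoE-/- library (3.5% of all genes) and within the Trf2T188A/ApoE-/- library (3.61%), and *Adamts1*, *Adamts4* and *Adamts5* were those that were not. In acute phase-like cells 9 of 10 members were past the fold upwards (3.87% of all genes), with *Adamts4* the exception, and 0 downwards (2.75%). Within the ApoE-/- library the same 9 were past it (3.93% of all genes), and within the Trf2T188A/ApoE-/- library 7 were (3.98%), without *Adamts5* and *Ctsk*. In chondrocyte-like cells 6 of 9 detected members were past it upwards (4.83% of all genes) and 0 downwards (7.15%), and *Timp2* was not among them. Within the Trf2T188A/ApoE-/- library the same 6 were past it (5.07% of all genes), and within the ApoE-/- library 5 were (4.76%), without *Mmp3*. Over both libraries these 3 classes shared *Mmp2*, *Mmp3*, *Mmp14*, *Timp1*, *Timp3* and *Ctsk*. In acute phase-like cells *Adamts1*, at 0.54, was past the fold in 5 of 10 alternatives, and *Timp3*, at 0.91, was 0.34 with a mean of log2 values. In fibromyocyte-like cells *Timp3* and *Mmp3*, at 1.43 and 1.74, were under the fold with a mean of log2 values, at 0.38 and 0.35. Clusters are defined by expression, so these counts describe the classes and test nothing.

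**Figure D1:**
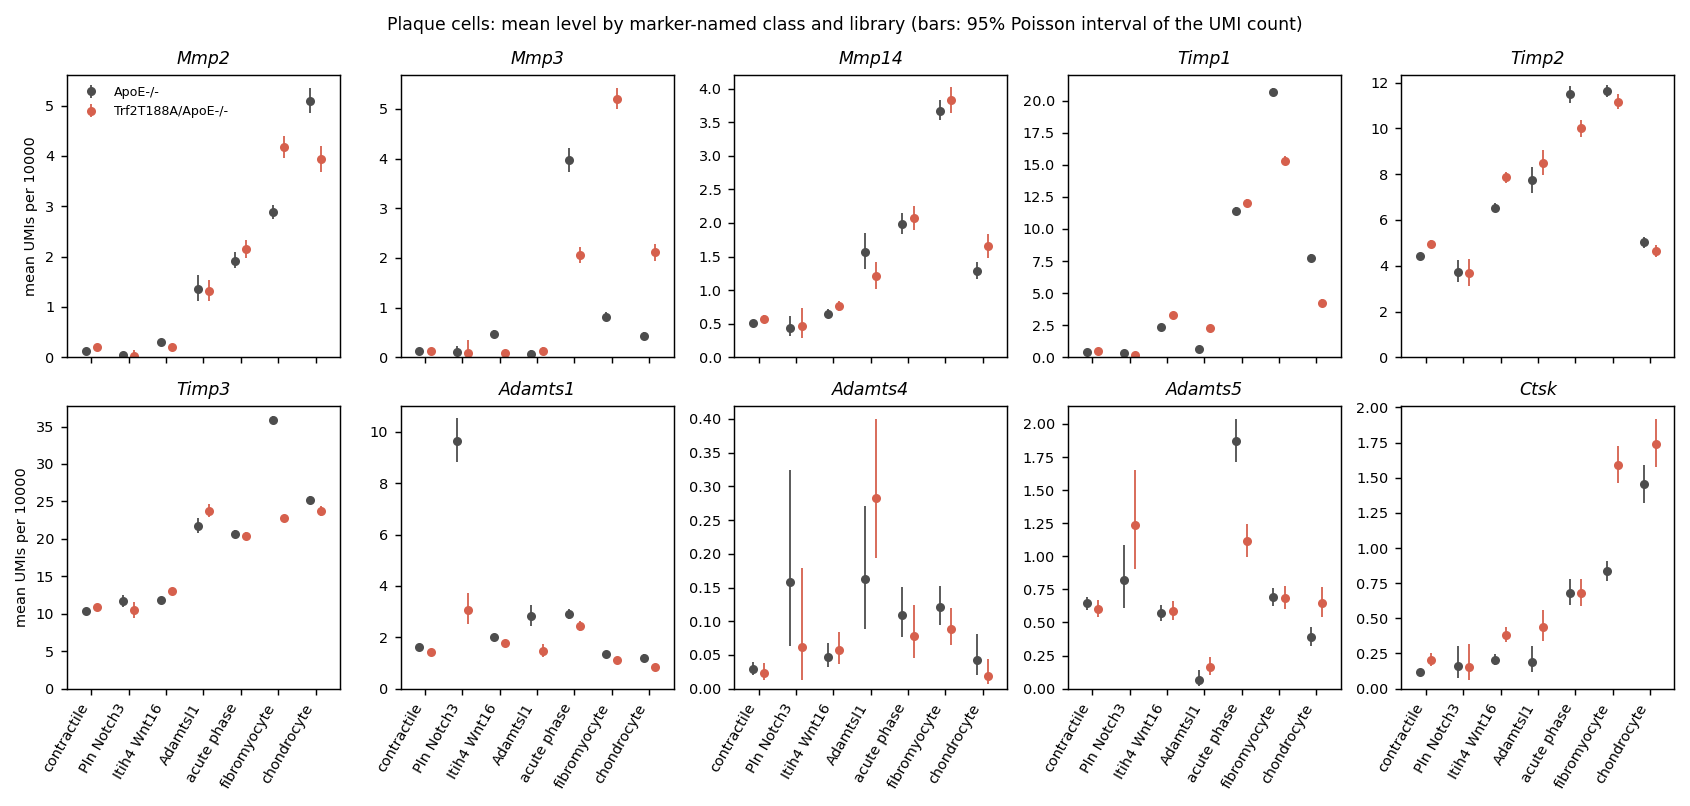
Mean level (UMIs per 10000, linear axes from 0) of the 10 members in 7 plaque classes, with ApoE-/- cells in grey and Trf2T188A/ApoE-/- cells in red and bars for the 95% Poisson interval of the UMI count. *Timp1* runs from under 0.5 in contractile-like cells to 20.7 and 15.3 in fibromyocyte-like cells, and *Mmp3* of the genotypes crosses over between acute phase-like and fibromyocyte-like cells.

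The gelatinase gene *Mmp2* had 0.131 UMIs per 10000 in contractile-like ApoE-/- cells (95% Poisson interval, 0.109 to 0.156) and 0.210 in contractile-like Trf2T188A/ApoE-/- cells (0.170 to 0.255). It reached 2.88 (2.75 to 3.02) and 4.18 (3.97 to 4.40) in fibromyocyte-like cells and 1.92 and 2.14 in acute phase-like cells. Its highest level was in chondrocyte-like ApoE-/- cells at 5.10 (4.86 to 5.35), against 3.93 (3.68 to 4.19) in chondrocyte-like Trf2T188A/ApoE-/- cells. *Mmp2* was therefore higher in these modulated states than in contractile-like cells in both genotypes. In the Trf2T188A/ApoE-/- library the intervals of fibromyocyte-like and chondrocyte-like cells overlapped. The transcript was not confined to these states. In the ApoE-/- library the 21 adventitial fibroblast-like cells, with 70 *Mmp2* UMIs, ranked above acute phase-like cells and below the chondrocyte-like and fibromyocyte-like ones. Over both libraries, the log2 ratio to contractile-like cells was 1.94 in fibromyocyte-like cells (1.88 to 2.0; 22.0-fold in the plain means) and 2.27 in chondrocyte-like cells (2.20 to 2.34; 29.1-fold). *Mmp2* was at 1.36 and 1.31 in *Adamtsl1* cells and nearly absent from *Pln Notch3* cells, at 0.0435 and 0.0259.

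The membrane-bound *Mmp14* peaked in fibromyocyte-like cells of both libraries, with 3.67 (3.53 to 3.82) in ApoE-/- and 3.83 (3.64 to 4.02) in Trf2T188A/ApoE-/- cells against 0.517 and 0.570 in contractile-like cells. It was next in acute phase-like cells, at 1.99 and 2.07. The genotypes overlapped in both classes within counting error. Its log2 ratio to contractile-like cells was 1.63 in fibromyocyte-like, 0.98 in acute phase-like and 0.67 in chondrocyte-like cells.

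*Timp1* had the highest log2 ratio to contractile-like cells of the 10. It had 0.389 (0.353 to 0.428) and 0.464 (0.405 to 0.530) UMIs per 10000 in contractile-like ApoE-/- and Trf2T188A/ApoE-/- cells, 2.36 and 3.30 in *Itih4 Wnt16* cells, 11.4 and 12 in acute phase-like cells, and 20.7 (20.4 to 21.0) and 15.3 (14.9 to 15.7) in fibromyocyte-like cells. Its log2 ratio between fibromyocyte-like and contractile-like cells was 3.77 (3.72 to 3.82; 44.1-fold in the plain means). With *Timp2*, it was also past the fold in *Itih4 Wnt16* cells (2 of 9 detected members, against 1.11% of all genes upwards, and 0 downwards, against 0.416%). *Timp2* was past it there within the Trf2T188A/ApoE-/- library alone and in 6 of 11 alternatives. *Timp2* had 4.44 and 4.96 in contractile-like cells and reached 11.6 and 11.2 in fibromyocyte-like and 11.5 and 10.0 in acute phase-like cells, but 5.02 and 4.64 in chondrocyte-like cells. The matrix-bound *Timp3* was already at 10.3 and 10.9 in contractile-like cells and was highest in fibromyocyte-like ApoE-/- cells, at 35.9 (35.5 to 36.4), where Trf2T188A/ApoE-/- cells had 22.7 (22.3 to 23.2). These means rested in part on cells with very many UMIs, up to 1311 and 1739 in a cell. At least 10 *Timp3* UMIs were found in 78.3% and 65.6% of fibromyocyte-like cells, against 85.9% and 81.2% of contractile-like cells.

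The ADAMTS genes followed another order. *Adamts1* was lowest in chondrocyte-like cells (1.21 and 0.833) and fibromyocyte-like cells (1.36 and 1.13) and highest in *Pln Notch3* cells of the ApoE-/- library, at 9.64 (8.81 to 10.5). Over both libraries it was the only member past the fold upwards in *Pln Notch3* cells, by 1.72 on the log2 scale (1.60 to 1.84), where 1.51% of all genes were past it upwards and 1.03% downwards. It was likewise the only one in 2 unnamed clusters, by 0.63 in a cluster led by *Sparcl1*, *Tppp3* and *Atf3* (0.658% of all genes, and 0.177% downwards) and by 1.05 in a shallow cluster with a median of 8440 UMIs (9.4% of all genes, and 7.42% downwards). The summed level of 15 immediate-early and heat shock genes, which also respond to tissue digestion, was higher in these clusters than in contractile-like cells. Its order among them was not that of *Adamts1* in either library. The sum was 74.7 and 71.5 UMIs per 10000 in contractile-like cells, 198 and 162 in *Pln Notch3* cells, 170 and 190 in the *Sparcl1* cluster and 213 and 261 in the shallow cluster. Over cells thinned to 1 depth, Spearman's rho of *Adamts1* with this sum was 0.22 over 2217 plaque cells and 0.32 over 9880 ligation cells. Within plaque classes it ran from −0.017 over 135 chondrocyte-like cells to 0.33 over 268 fibromyocyte-like cells. The part of digestion in the *Adamts1* levels was not tested.

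*Adamts5* was highest in acute phase-like ApoE-/- cells at 1.87 (1.71 to 2.04), with 1.11 (0.992 to 1.25) in acute phase-like Trf2T188A/ApoE-/- cells and 0.644 and 0.604 in contractile-like cells. It was nearly absent from *Adamtsl1* cells, at 0.0634 and 0.160, the only member past the fold downwards in any plaque class (a log2 ratio of −0.55, where 1.38% of all genes were past it). This held within the ApoE-/- library alone (1.63% of all genes) and in 7 of 11 alternatives. In the same *Adamtsl1* cells 5 members were past it upwards, *Mmp2*, *Mmp14*, *Timp1*, *Timp2* and *Timp3* (2.51% of all genes upwards). *Mmp2*, *Timp2* and *Timp3* were past it within each library. *Mmp14* and *Adamts1* were past it within the ApoE-/- library alone (2.97% of all genes). *Timp1* was past it within the Trf2T188A/ApoE-/- library alone (2.42%) and, over both libraries, in 8 of 11 alternatives. *Adamts4* stayed at or below 0.283 UMIs per 10000 in the 7 larger named plaque classes of both libraries, a value reached in *Adamtsl1* Trf2T188A/ApoE-/- cells. *Ctsk* had 0.115 and 0.204 in contractile-like cells and 0.834 (0.763 to 0.910) and 1.59 (1.46 to 1.72) in fibromyocyte-like cells, and was highest in chondrocyte-like cells, at 1.45 (1.32 to 1.59) and 1.74 (1.58 to 1.92). In the Trf2T188A/ApoE-/- library the intervals of these last 2 classes overlapped.

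Markers of other cell types were summed in the same classes. In fibromyocyte-like cells, 9 myeloid markers summed to 0.653 UMIs per 10000 in ApoE-/- and 0.528 in Trf2T188A/ApoE-/- cells, with 2 and 1 of the 9 at 0. The 8 endothelial markers summed to 0.489 and 0.887, and 6 adventitial fibroblast markers to 2.03 and 2.57, against 0.293 and 0.345 in contractile-like cells. In contractile-like cells the myeloid sum was 0.115 and 0.188 and the endothelial sum 0.463 and 0.523. All 3 sums were higher in acute phase-like cells, where the adventitial markers had 3.11 and 2.92, the endothelial markers 1.52 and 1.87 and the myeloid markers 0.894 and 1.12. In chondrocyte-like cells the adventitial markers had 0.536 and 1.47, the myeloid markers 0.211 and 0.242 and the endothelial markers 0.154 and 0.0766. The part of these sums in the members' levels was not tested.

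Of the 60 other genes of the protease system that were listed, 34 had a UMI in at least 10% of plaque cells. In fibromyocyte-like cells 40 were detected by the rule above, of which 5 were past the fold upwards (*Adamts2*, *Bmp1*, *Cst3*, *Serpine2* and *Lrp1*) and 1 downwards (*Adam33*). The procollagen proteases *Adamts2* and *Bmp1* trim collagen as it is laid down, and *Cst3* encodes cystatin C, an inhibitor of cathepsins. *Cst3* had the highest ratio among them, 1.15 (1.13 to 1.17), and *Adam33* the lowest, −0.53 (−0.57 to −0.49). In chondrocyte-like cells *Cst3* had a log2 ratio of 3.40 (3.38 to 3.41) and the cathepsin gene *Ctsl* −1.05 (−1.14 to −0.96), with 5 of 40 genes past the fold upwards and 6 downwards. In acute phase-like cells 5 of 39 were past it upwards and 0 downwards, and here *Ctsl* was among the higher ones, at 0.89 (0.84 to 0.95). *Lrp1*, a clearance receptor for proteases and their inhibitors, was past the fold upwards in all 3 of these states.

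Between the plaque genotypes, the members did not move as 1 group. In contractile-like cells 0 of 9 detected members were past the fold, where 0.266% of all genes were past it upwards and 0.226% downwards, and the log2 ratios lay between −0.11 for *Adamts1* and 0.13 for *Timp2*. In fibromyocyte-like cells 3 proteases were past it upwards (1.21% of all genes), *Mmp3*, *Ctsk* and *Mmp2*, and 2 inhibitors downwards (2.08% of all genes), *Timp1* and *Timp3*. In chondrocyte-like cells *Mmp3* was past it upwards (3.03% of all genes), and *Timp1*, *Mmp2* and *Adamts1* downwards (1.96%). In acute phase-like cells 0 members were past it upwards (1.51% of all genes), and *Mmp3* and *Adamts5* were past it downwards (1.22%). The 5 differences in fibromyocyte-like cells stayed past the fold under each of the 11 alternatives run. At the higher clustering resolution, however, this class was joined from clusters of uneven make-up. A cluster led by *Spp1* held 79 ApoE-/- and 97 Trf2T188A/ApoE-/- cells. Another, led by *Timp1* and with *Timp3* among its 10 leading genes, held 82 and 33. The part of this make-up in the 5 differences, and in the TIMP to MMP ratio below, was not tested. Each of these differences is between 2 libraries and carries no error over animals.

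**Figure D2:**
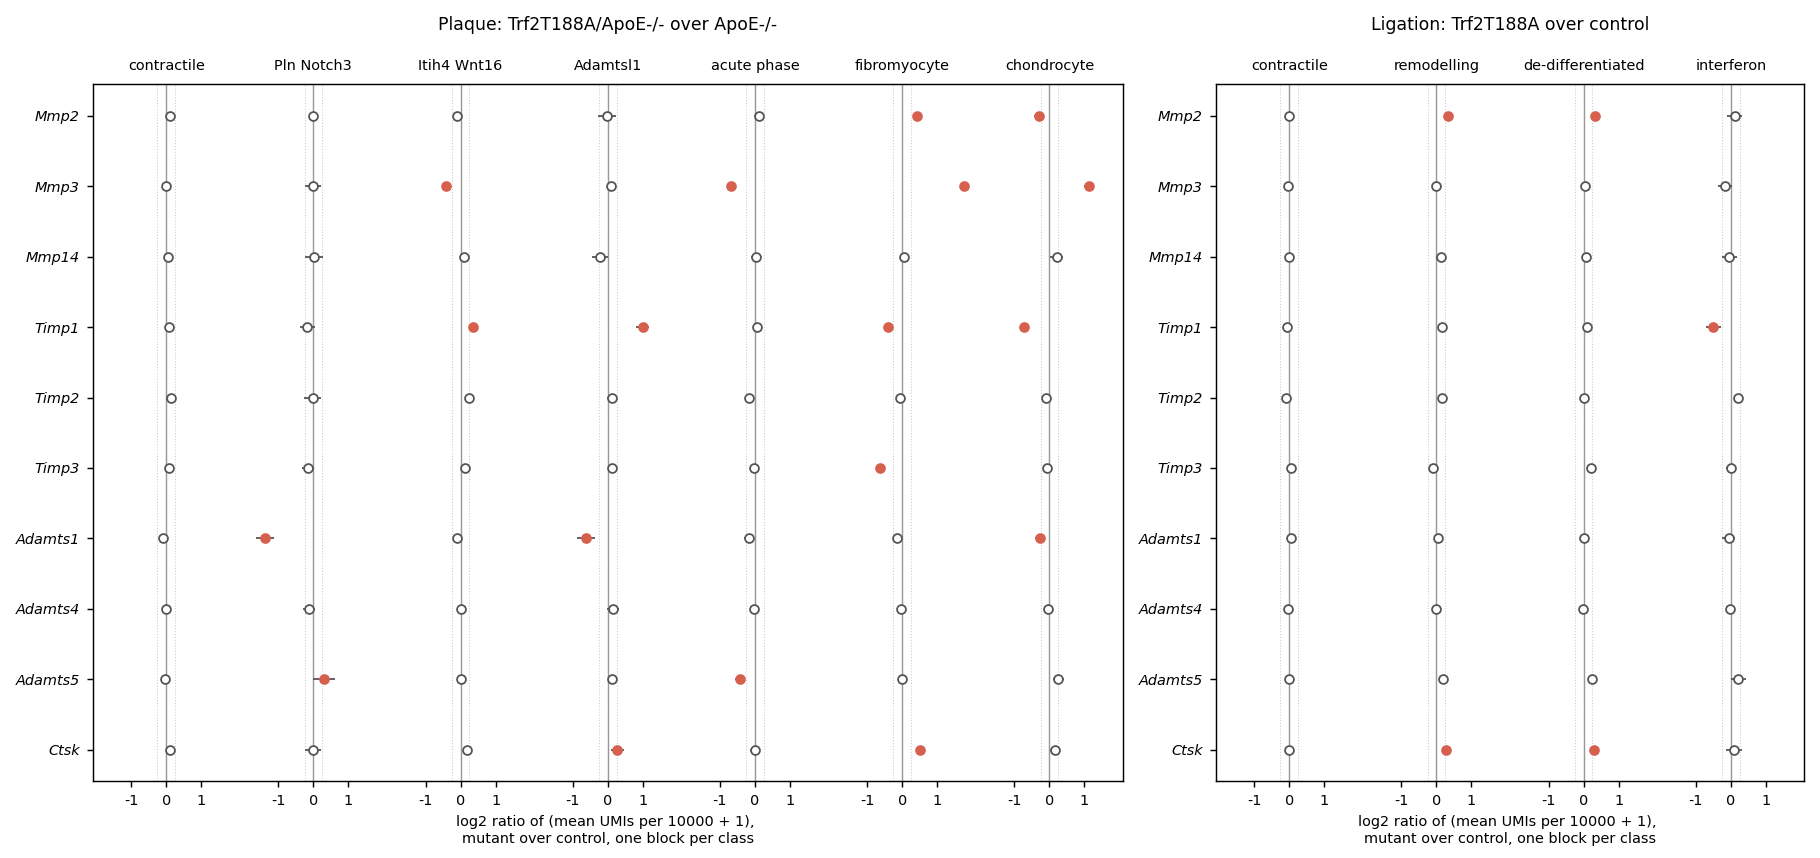
Log2 ratio of mean UMIs per 10000 (1 added to each mean) between genotypes for the 10 members, in 7 plaque classes (left, Trf2T188A/ApoE-/- over ApoE-/-) and 4 ligation classes (right, Trf2T188A over control), each class on its own axis from the same scale. Filled red points are past the fold of 0.25 (dotted lines), open points are not, and bars are 95% counting intervals. *Mmp3* lies at 1.77 in fibromyocyte-like and at −0.70 in acute phase-like plaque cells, while no member is past the fold in contractile-like cells of either experiment.

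*Mmp3* showed the largest genotype difference of the 10. It had 0.820 UMIs per 10000 (0.738 to 0.908) in fibromyocyte-like ApoE-/- cells and 5.21 (5.0 to 5.42) in fibromyocyte-like Trf2T188A/ApoE-/- cells, a log2 ratio of 1.77 (1.68 to 1.86) and a plain ratio of 6.36 (5.65 to 7.15). In chondrocyte-like cells it had 0.426 (0.353 to 0.511) and 2.11 (1.95 to 2.29), a log2 ratio of 1.13 (0.99 to 1.26). In acute phase-like cells the order was the opposite, with 3.96 (3.73 to 4.21) in ApoE-/- and 2.06 (1.90 to 2.22) in Trf2T188A/ApoE-/- cells, a log2 ratio of −0.70 (−0.81 to −0.59). *Itih4 Wnt16* cells also had less in the Trf2T188A/ApoE-/- library, with 0.475 and 0.0956 and a log2 ratio of −0.43 (−0.53 to −0.32; 0.387% of all genes past it downwards). This ratio was past the fold in 9 of 11 alternatives and −0.09 with a mean of log2 values. Over all plaque cells the level was 0.638 (0.612 to 0.665) and 1.11 (1.08 to 1.15), so that *Mmp3* was the only member past the fold upwards when the classes were pooled (0.57% of all genes), with 0 downwards (0.247%). That log2 ratio of 0.37 was 0.059 as a difference of mean log2 values, and in thinned cells *Mmp3* was under the detection limit. Of the 2239 *Mmp3* UMIs of the ApoE-/- library, 254 lay in an unnamed cluster of 13 cells led by *Igfbp3* and *Gpx3*. That cluster held 0 Trf2T188A/ApoE-/- cells, and 0 of its cells carried a Confetti reporter.

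These *Mmp3* means rested on a few cells. In fibromyocyte-like cells, 8 of 161 ApoE-/- cells (4.97%; exact Clopper-Pearson 95% interval, 2.17 to 9.56%) and 16 of 128 Trf2T188A/ApoE-/- cells (12.5%; 7.32 to 19.5%) had 10 or more *Mmp3* UMIs. They held 312 of 365 UMIs (85.5%) and 2349 of 2389 UMIs (98.3%), while 129 and 92 cells had none. The highest cell had 136 UMIs in the ApoE-/- and 559 in the Trf2T188A/ApoE-/- library. In acute phase-like cells, 14 of 111 and 7 of 80 cells (12.6% and 8.75%) held 95.7% and 95.6% of the UMIs, and in chondrocyte-like cells 3 of 81 and 11 of 63 cells (3.70% and 17.5%) had 10 or more. By Confetti reporter transcript, 7 of the 8 high fibromyocyte-like ApoE-/- cells carried tdimer2 and 1 no reporter, where 51 of all 161 cells carried tdimer2. Of the 16 high Trf2T188A/ApoE-/- cells 9 carried tdimer2, 5 EYFP and 4 mCerulean, 4 carried several reporters and 3 none. Of all 128 cells of that library and class, 40 carried tdimer2, 41 EYFP and 37 mCerulean. These transcripts do not give 1 founder colour per cell, and descent from shared founder cells was not tested. Of the 126 fibromyocyte-like ApoE-/- cells with 10 or more *Timp3* UMIs, 36 carried several reporters. *Mmp3* was thus a transcript of a minority of cells in every modulated state, and both the number of such cells and their UMIs were higher in fibromyocyte-like and chondrocyte-like cells of the Trf2T188A/ApoE-/- library and lower in its acute phase-like cells. The intervals of the shares of high cells overlapped in each of these classes. They were 7.07 to 20.3% and 3.59 to 17.2% in acute phase-like cells, and 0.77 to 10.4% and 9.05 to 29.1% in chondrocyte-like cells. Averaged as log2 values per cell, which gives a few high cells less weight, the fibromyocyte-like ratio was 0.45 and the acute phase-like ratio −0.25, just under the fold.

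**Figure D3:**
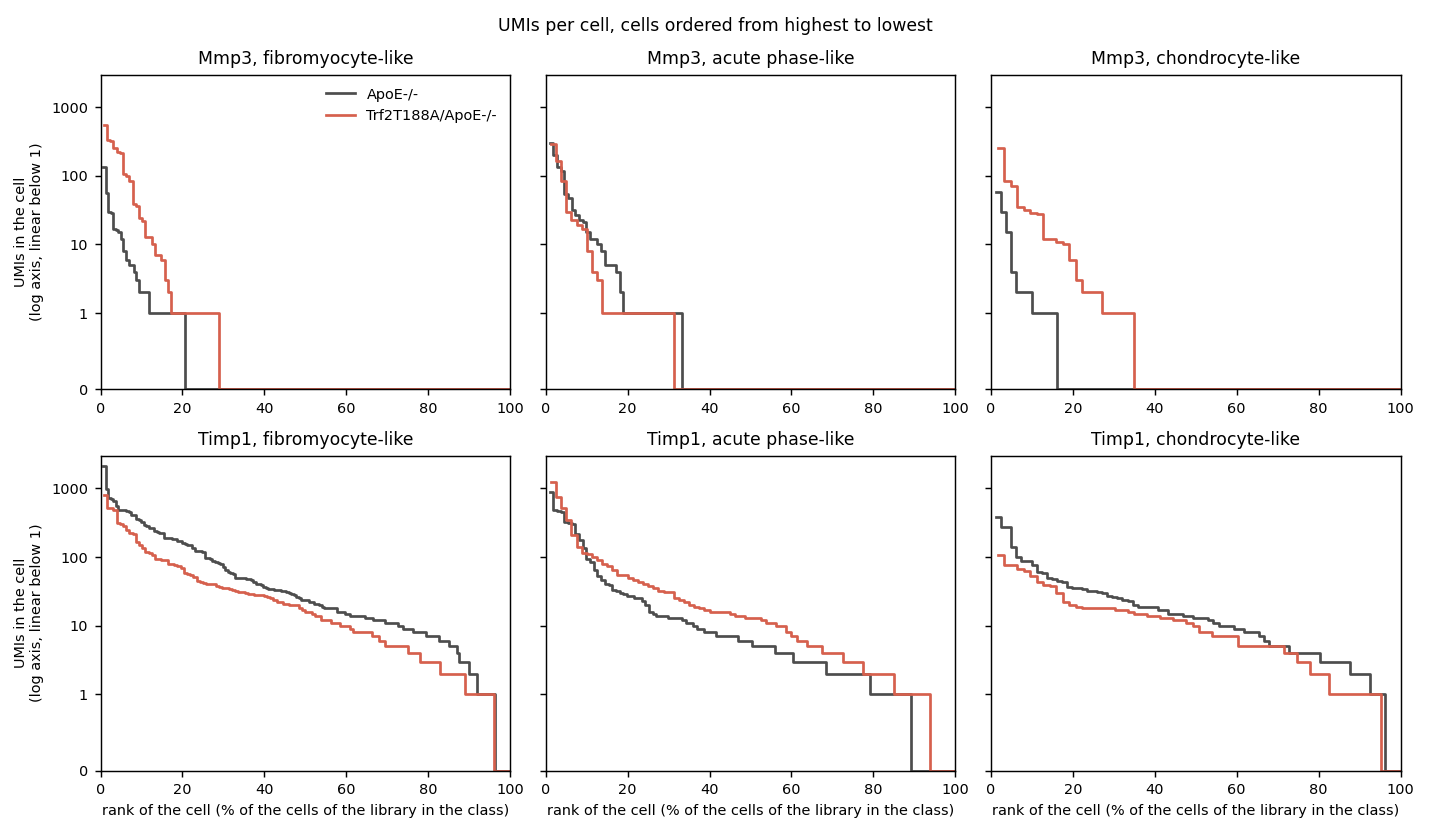
UMIs of *Mmp3* (top) and *Timp1* (bottom) in each cell of 3 plaque classes, on a log axis that is linear below 1, with cells ordered from highest to lowest and given as a percentage of the cells of their library, in grey for ApoE-/- and red for Trf2T188A/ApoE-/-. *Mmp3* reaches 0 within the first 40% of cells in each panel, whereas *Timp1* has a UMI in more than 85% of the cells of each class.

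*Timp1* was spread more evenly. At least 10 UMIs were found in 118 of 161 fibromyocyte-like ApoE-/- cells (73.3%; 65.8 to 79.9%) and in 77 of 128 Trf2T188A/ApoE-/- cells (60.2%; 51.1 to 68.7%). Median depths of this class were 33783 UMIs in the ApoE-/- and 28436 in the Trf2T188A/ApoE-/- library. A limit of 10 UMIs is reached more easily in deeper cells, and the part of depth in such shares was not tested. The highest cell held 2107 of 17213 UMIs in the ApoE-/- and 805 of 7034 in the Trf2T188A/ApoE-/- library. The means of 20.7 and 15.3 gave a log2 ratio of −0.41 (−0.46 to −0.36). In chondrocyte-like cells *Timp1* had 7.72 (7.42 to 8.03) in the ApoE-/- and 4.26 (4.0 to 4.53) in the Trf2T188A/ApoE-/- library, a log2 ratio of −0.73 (−0.84 to −0.62). In *Adamtsl1* cells the order was the opposite, with 0.646 (0.505 to 0.813) and 2.28 (2.06 to 2.52) and a log2 ratio of 1.0 (0.81 to 1.19; 3.15% of all genes past it upwards) that was 0.40 without the cells of highest doublet score. In *Itih4 Wnt16* cells the *Timp1* ratio was 0.36 (0.28 to 0.43; 0.959% of all genes). It was past the fold in 8 of 11 alternatives and 0.10 at the lower clustering resolution. *Timp3* was past the fold in fibromyocyte-like cells alone among the named classes, with a log2 ratio of −0.64 (−0.68 to −0.60), and in the shallow unnamed cluster, with −0.41 (5.41% of all genes), which was −0.069 without cells of under 2000 genes. *Timp2* stayed between −0.18 and 0.13 in the contractile-like, fibromyocyte-like, acute phase-like and chondrocyte-like classes.

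*Mmp2* was higher in fibromyocyte-like Trf2T188A/ApoE-/- cells, with a log2 ratio of 0.42 (0.32 to 0.52), and lower in chondrocyte-like ones, with −0.31 (−0.44 to −0.18). Cells with 10 or more *Mmp2* UMIs made up 64 of 161 and 63 of 128 fibromyocyte-like cells, so that this difference did not rest on a few cells. *Ctsk* was higher in fibromyocyte-like Trf2T188A/ApoE-/- cells by 0.50 (0.39 to 0.61; 1.91-fold in the plain means), and in *Adamtsl1* cells by 0.27 (0.09 to 0.45). *Mmp14* was past the fold in none of the 7 named classes, and *Adamts4* likewise. *Adamts1* differed most in *Pln Notch3* cells, at 9.64 in ApoE-/- and 3.07 (2.51 to 3.73) in Trf2T188A/ApoE-/- cells, a log2 ratio of −1.39 (−1.64 to −1.13), where 5.52% of all genes were past the fold downwards and the classes held 41 and 21 cells. It was also lower in *Adamtsl1* cells, with a log2 ratio of −0.63 (−0.89 to −0.36; 4.54% of all genes) that was −0.10 in cells thinned to 1 depth, and in chondrocyte-like cells, with −0.27 (−0.42 to −0.12), a ratio that turned to 0.088 when UMIs were summed over cells without a pseudocount. *Adamts5* was lower in acute phase-like Trf2T188A/ApoE-/- cells, with a log2 ratio of −0.44 (−0.58 to −0.30). Its log2 ratio of 0.30 in *Pln Notch3* cells (5.87% of all genes) had an interval that included 0, −0.02 to 0.61, and was 0.13 in thinned cells. In the *Sparcl1* cluster *Adamts5* had 0.35 (0.613% of all genes upwards and 0.399% downwards; past the fold in 5 of 8 alternatives), and in the shallow cluster *Adamts1* had 0.34 (4.09%; in 6 of 8).

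The 60 other genes of the system also split between the genotypes. In fibromyocyte-like cells 4 of 39 detected genes were past the fold upwards (*Adamts2*, *Cst3*, *Serpine2* and *Lrp1*) and 3 downwards (*Adam12*, *Ctsd* and *Plaur*). *Cst3* had a log2 ratio of 0.38 (0.35 to 0.41) there and −0.57 (−0.59 to −0.55) in chondrocyte-like cells. In chondrocyte-like cells 7 of 34 were past it upwards, with the serine protease genes *Htra1* at 0.57 (0.40 to 0.74) and *Htra3* at 0.44 (0.25 to 0.64) highest, and 2 downwards. In contractile-like cells *Cst3* (0.43) and the protease inhibitor gene *Serpine2* (0.33) were past it upwards and 0 of 33 downwards.

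The ratio of summed TIMP to summed MMP UMIs (*Timp1*, *Timp2* and *Timp3* over *Mmp2*, *Mmp3* and *Mmp14*) brings these levels together. In contractile-like cells it was 19.4 in the ApoE-/- (95% interval, 18.1 to 20.8) and 19.5 in the Trf2T188A/ApoE-/- library (17.8 to 21.4). In fibromyocyte-like cells it was 10.4 (10.1 to 10.7) and 4.0 (3.88 to 4.12), and in chondrocyte-like cells 5.93 (5.66 to 6.2) and 4.01 (3.81 to 4.22). Acute phase-like cells had the opposite order, at 6.72 (6.43 to 7.02) and 7.66 (7.30 to 8.05), and so had *Itih4 Wnt16* cells, at 16.6 and 24.4. Inhibitor UMIs outnumbered MMP UMIs in every class.

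These gaps rested in part on *Mmp3*, and so on the few cells that held it. In fibromyocyte-like cells *Mmp3* gave 365 of 4451 MMP UMIs in the ApoE-/- and 2389 of 5393 in the Trf2T188A/ApoE-/- library, and without it the ratios were 11.3 (10.99 to 11.71) and 7.18 (6.91 to 7.46), in the same order. In chondrocyte-like cells it gave 118 of 2207 and 599 of 1846, and the ratios without it, 6.26 (5.98 to 6.56) and 5.93 (5.59 to 6.3), overlapped. In the acute phase-like class it gave 1056 of 2233 and 662 of 1794. The order of that class turned without *Mmp3*, to 12.7 (12.01 to 13.53) and 12.1 (11.4 to 12.9), with overlapping intervals. In *Itih4 Wnt16* cells the ratios without it were 22.6 (20.8 to 24.6) and 25.7 (23.6 to 28.1), which also overlapped. Leaving out *Mmp3* was chosen after seeing the data. Over all cells the ratio was 10.2 and 7.04 with *Timp3*, which made up 56.2% and 55.9% of the inhibitor UMIs, and 4.48 and 3.10 without it.

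**Figure D4:**
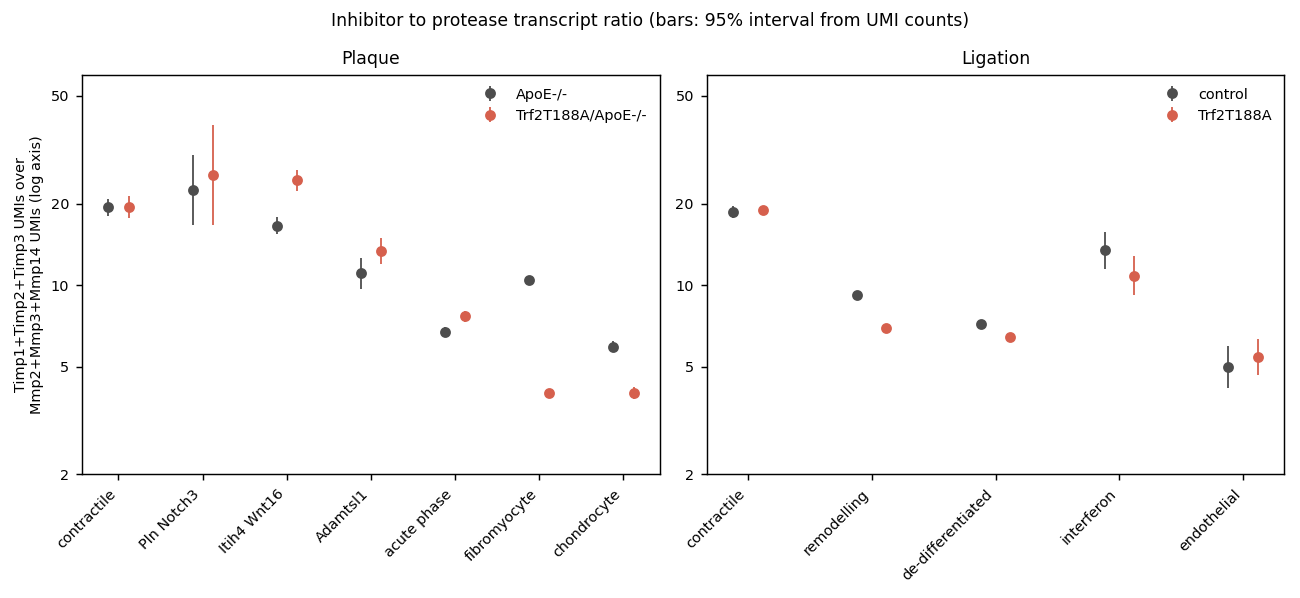
Ratio of summed *Timp1*, *Timp2* and *Timp3* UMIs to summed *Mmp2*, *Mmp3* and *Mmp14* UMIs, on a log axis, in 7 plaque classes (left) and 5 ligation classes (right), with control libraries in grey, TRF2 mutant libraries in red and 95% counting intervals as bars. Contractile-like cells lie near 19 in all 4 libraries, and the widest gap between genotypes is in fibromyocyte-like plaque cells, at 10.4 and 4.0.

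After ligation, the members were again set against contractile-like cells. In the remodelling state, led by *Igfbp2* and *Eln*, *Mmp2* was the only 1 of 8 detected members past the fold upwards (0.883% of all genes) and 0 were past it downwards (0.552%). In de-differentiated cells, led by *Lum*, *Gdf10* and *Dcn*, 4 of 8 were past it upwards, *Mmp2*, *Ctsk*, *Adamts1* and *Adamts5* (1.77% of all genes), and 0 downwards (1.25%). Within the control library 3 of these 4 were past it (1.89% of all genes), and within the Trf2T188A library all 4 (1.59%), *Adamts5* being under it in the control library. None of the TIMP genes was past the fold in either state. Over both libraries the median log2 ratio of the members was 0.23 and 0.49, against −0.017 and −0.015 over all detected genes.

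**Figure D5:**
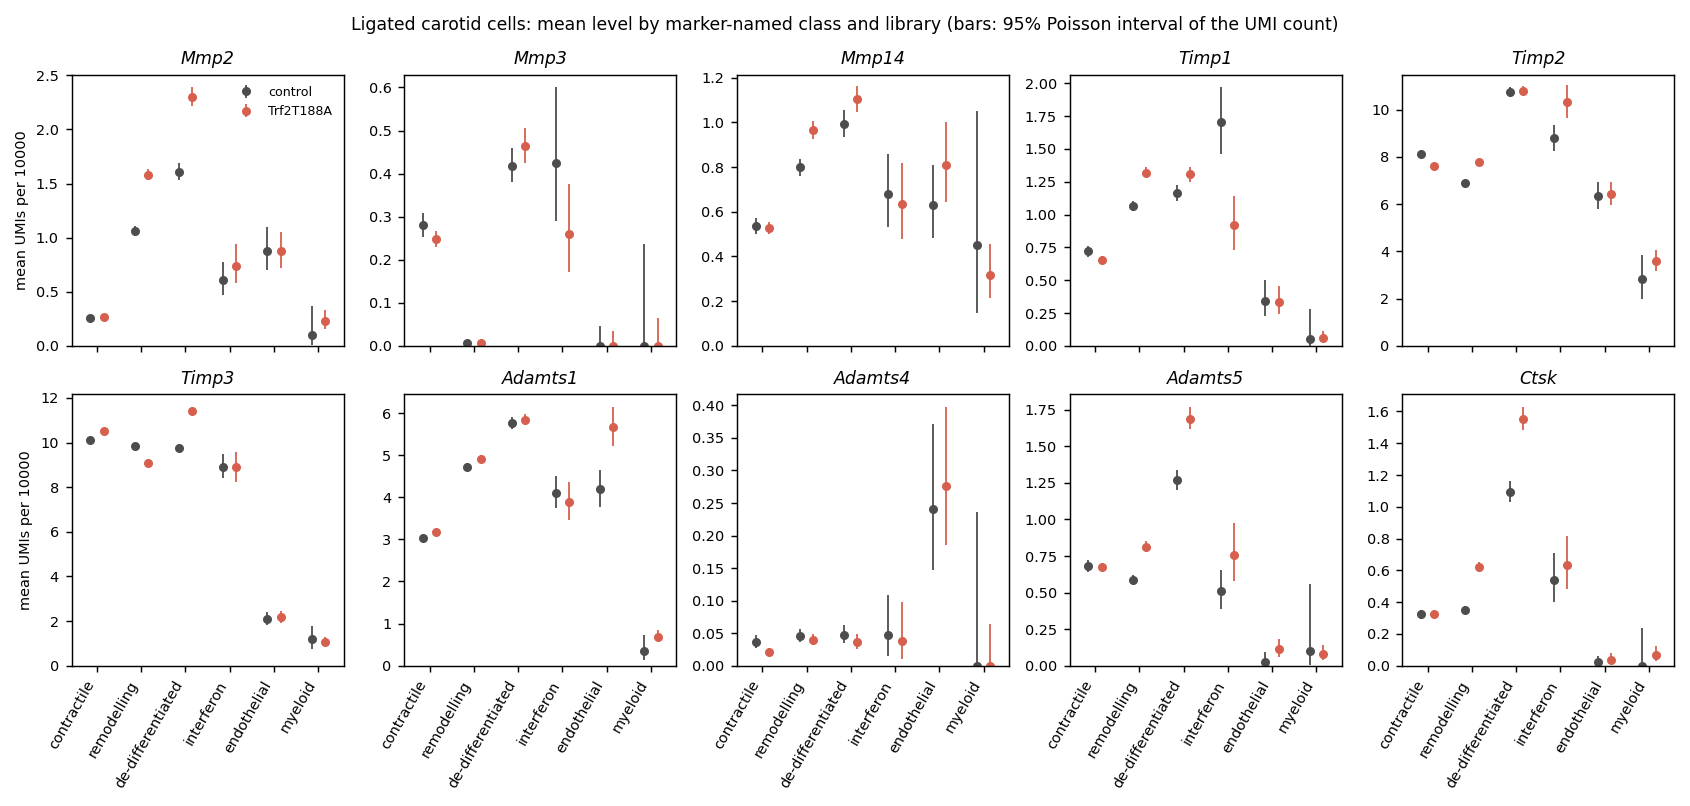
Mean level (UMIs per 10000, linear axes from 0) of the 10 members in 6 classes of ligated carotid cells, with control cells in grey and Trf2T188A cells in red and bars for the 95% Poisson interval of the UMI count. *Mmp2*, *Adamts5* and *Ctsk* are highest in de-differentiated cells, *Mmp3* is near 0 in remodelling cells, and *Timp3* is low in endothelial-like and myeloid-like cells.

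*Mmp2* had 0.258 (0.233 to 0.284) and 0.264 (0.246 to 0.283) UMIs per 10000 in contractile-like control and Trf2T188A cells, 1.06 (1.02 to 1.11) and 1.58 (1.53 to 1.63) in remodelling cells, and 1.61 (1.54 to 1.69) and 2.30 (2.22 to 2.39) in de-differentiated cells. *Ctsk* had 0.322 and 0.328 in contractile-like cells, 0.350 (0.325 to 0.377) and 0.620 (0.589 to 0.653) in remodelling cells, and 1.09 (1.03 to 1.16) and 1.55 (1.48 to 1.63) in de-differentiated cells. For both genes the genotypes coincided in contractile-like cells and parted in the 2 modulated states, with the Trf2T188A library higher. Between the genotypes *Mmp2* and *Ctsk* were the members past the fold in remodelling cells, by 0.32 (0.28 to 0.37) and 0.26 (0.22 to 0.31; 1.48% of all genes), and in de-differentiated cells, by 0.34 (0.28 to 0.40) and 0.29 (0.22 to 0.35; 1.09%), with 0 members past it downwards (0.805% and 0.721%). The de-differentiated ratios were 0.040 and 0.048 at a lower clustering resolution, where the class took in contractile-like cells and held 6132 cells. The *Ctsk* ratio was also under the fold in thinned cells, at 0.20, and with a mean of log2 values, at 0.23. Median depths in this class were 8572 UMIs in the control and 11207 in the Trf2T188A library. The *Ctsk* ratio of remodelling cells was 0.21 with a mean of log2 values. At the higher clustering resolution, a remodelling cluster with *Mmp2* and *Timp1* among its leading genes held 157 control and 228 Trf2T188A cells. The whole class at the main resolution held 2025 and 1861. The part of this make-up in the remodelling *Mmp2* ratio was not tested. *Adamts5* came close in de-differentiated cells, with 1.27 and 1.69 and a log2 ratio of 0.25 (0.18 to 0.31) that rounds to the fold but lies under it. In contractile-like cells 0 of 8 detected members were past it (0.77% of all genes upwards and 0.181% downwards), and the ratios lay between −0.08 for *Timp2* and 0.05 for *Timp3*. Pooled over all cells, 0 of 8 were past it (0.837% upwards and 0.255% downwards).

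*Mmp3* separated the ligation states by its absence. It had 0.280 and 0.248 in contractile-like cells and 0.418 and 0.463 in de-differentiated cells, but 0.00605 (0.00322 to 0.0103) and 0.00768 (0.00515 to 0.0110) in remodelling cells. In endothelial-like and myeloid-like cells it had 0 UMIs, with upper limits of 0.0460 and 0.0341 and of 0.236 and 0.0648. It had a UMI in only 2.80% of control and 3.32% of Trf2T188A cells, so that it was under the detection limit used for ratios. Over all ligation cells its level was 0.197 in both libraries.

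*Adamts1* was the most abundant protease of the 10 after ligation, with 3.04 and 3.18 in contractile-like cells, 4.72 and 4.90 in remodelling cells and 5.76 and 5.85 in de-differentiated cells. The sum of the 15 immediate-early and heat shock genes in the remodelling and de-differentiated cells was 174 and 231 in the control and 165 and 193 in the Trf2T188A library. *Timp1* was between 0.657 and 1.32 in the contractile-like, remodelling and de-differentiated cells of both libraries. In interferon-responsive cells it had 1.70 (1.47 to 1.97) in control and 0.919 (0.727 to 1.15) in Trf2T188A cells, a log2 ratio of −0.49 (−0.71 to −0.28; 3.41% of all genes past it downwards). The 9 myeloid markers summed to 4.66 in these 115 control cells and to 0.0296 in the 61 Trf2T188A cells, and their part in the *Timp1* difference was not tested. Against contractile-like cells of both libraries, *Timp1* was past the fold upwards in interferon-responsive cells by 0.53 (1.51% of all genes upwards and 0.0479% downwards). This held within the control library alone, and the ratio was 0.43 with a mean of log2 values and 0.48 without the highest cell of each side. Between the genotypes 0 members were past the fold upwards there (2.83%). *Timp2* and *Timp3* differed by less than 0.25 between the genotypes in each of the 4 VSMC classes.

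Cells that are not VSMCs gave the members another profile. In endothelial-like cells *Timp3* had 2.09 (1.81 to 2.41) and 2.18 (1.93 to 2.46), a log2 ratio to contractile-like cells of −1.86 (−1.96 to −1.75), and *Adamts5* was also past the fold downwards (5.86% of all genes). *Mmp2* (0.57) and *Adamts1* (0.53) were past it upwards (7.11%). *Adamts4* was highest here, with 0.241 (0.147 to 0.372) and 0.276 (0.185 to 0.397) against at most 0.0476 in the 4 VSMC classes. In myeloid-like cells 5 of 8 detected members, *Timp1*, *Timp2*, *Timp3*, *Adamts1* and *Adamts5*, were past the fold downwards (10.1% of all genes) and 0 upwards (9.13%). The other listed genes of the system differed there, with 11 of 35 past the fold upwards, among them *Ctss*, a cathepsin of antigen-presenting cells, at 4.15 (4.06 to 4.25), and the macrophage elastase gene *Mmp12* at 2.47 (2.32 to 2.62). Between the genotypes *Adamts1* was past the fold in endothelial-like cells, by 0.36 (0.18 to 0.54; 3.58% of all genes, and 4.32% downwards), and *Timp2* and *Adamts1* in myeloid-like cells, by 0.27 and 0.31 (10.3%, and 15.7% downwards), where the control library held 19 cells. Without the highest doublet scores the myeloid-like ratios were 0.13 and −0.080, and each was past the fold in 7 of 10 alternatives.

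Of the 60 other genes of the system, 53 were in the ligation table and 30 had a UMI in at least 10% of cells. In de-differentiated cells 2 of 32 detected genes, *Cst3* at 1.20 (1.20 to 1.21) and *Ctsl* at 0.54 (0.51 to 0.56), were past the fold upwards and 0 downwards. In remodelling cells *Adamts2* was past it upwards at 0.57 (0.54 to 0.60) and *Cst3* downwards at −0.63 (−0.64 to −0.62). Between the genotypes 3 of 31 were past it upwards in remodelling cells, *Ctsl* at 0.33 (0.30 to 0.36), *Htra3* at 0.27 (0.22 to 0.32) and *Ctsh* at 0.26 (0.21 to 0.30), and *Serpine2* downwards at −0.31 (−0.33 to −0.28). In de-differentiated cells 0 of 31 were past it in either direction.

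The TIMP to MMP ratio after ligation was 18.7 (17.7 to 19.6) in contractile-like control and 18.9 (18.3 to 19.6) in contractile-like Trf2T188A cells. It was 9.23 (8.93 to 9.53) and 6.97 (6.79 to 7.16) in remodelling cells and 7.18 (6.92 to 7.45) and 6.42 (6.23 to 6.62) in de-differentiated cells. Contractile-like cells had the highest ratio of the ligation classes, with the genotypes within counting error of each other. Of these 3 states, remodelling cells had the widest gap. Over all cells it was 10.2 and 9.34, and 4.96 and 4.52 without *Timp3*.

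Cell by cell, the members were only loosely tied. Over 2217 plaque cells thinned to 8000 UMIs, 37 of the 45 pairs had a positive Spearman's rho with a median of 0.053, and the highest was *Mmp2* with *Timp1* at 0.41, which was 0.39 in the ApoE-/- and 0.43 in the Trf2T188A/ApoE-/- library. Within contractile-like cells it was −0.028, so that this pair was tied across the states. Within fibromyocyte-like cells the lowest pair was *Mmp14* with *Timp3* at −0.36 over 268 cells. Over 9880 ligation cells thinned to 5000 UMIs the highest pair was *Mmp2* with *Timp2* at 0.18, with 0.17 and 0.19 in the 2 libraries. The cells share libraries and classes, and the values are descriptions.

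Genes with profiles like those of the members were sought over 20 class-by-library means in plaques and 13 after ligation, which share libraries. In plaques *Timp1* was most like *Chpf*, *Col3a1* and *Stac2* (Pearson's r, 0.96, 0.93 and 0.92), *Mmp2* like *Trps1*, *B3gnt9* and *Dcn* (0.93, 0.91 and 0.91), *Ctsk* like *Sertad4*, *Ecrg4* and *Col1a2* (0.95, 0.95 and 0.94) and *Mmp3* like *Penk*, *Htra4* and *Pcolce* (0.93, 0.90 and 0.89). *Mmp14* was most like *Capg* (0.94), *Timp2* like *Gm44148* (0.91), *Timp3* like *Rcn1* (0.92), *Adamts1* like *Kansl3* (0.87), *Adamts4* like *Elmo2* (0.87) and *Adamts5* like *Igfbp4* (0.88). After ligation *Mmp2* was most like *Unc5b*, *Nid1* and *Lmo4* (0.93, 0.93 and 0.92), *Ctsk* like *Pdgfrl*, *Mrc2* and *Thbs2* (0.97, 0.96 and 0.96) and *Adamts5* like *Egfr*, *Chst2* and *Fhl2* (0.97, 0.96 and 0.95). Collagen or collagen-binding genes such as *Col3a1*, *Dcn*, *Col1a2* and *Pcolce* were thus among the genes closest to *Timp1*, *Mmp2*, *Ctsk* and *Mmp3* in plaques, and these 4 were picked out after the list had been seen.

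Cells with a UMI of *Cdkn2a*, the p16 senescence marker, could be set against cells without one within a class, at 1 depth and over both libraries. In fibromyocyte-like plaque cells 27 had a UMI and 241 had none, and per 8000 UMIs they held 22.3 and 14.1 *Timp1* UMIs, 4.41 and 2.74 *Mmp14* UMIs, 3.15 and 2.74 *Mmp2* UMIs and 21.0 and 25.2 *Timp3* UMIs. They also held 4.04 and 2.20 *Mmp3* UMIs and 0.741 and 0.971 *Ctsk* UMIs. In remodelling ligation cells 216 had a UMI and 3526 had none, and per 5000 UMIs they held 1.44 and 0.606 *Mmp2* UMIs, 1.21 and 0.586 *Timp1* UMIs and 1.48 and 2.48 *Adamts1* UMIs. In de-differentiated cells, with 104 and 1808 cells, *Mmp2* had 1.41 and 0.918. In chondrocyte-like plaque cells only 10 had a UMI and 125 had none, and they held 3.10 and 3.94 *Mmp2*, 0.50 and 1.16 *Mmp14* and 4.40 and 5.30 *Timp1* UMIs. *Mmp3* (3.90 and 0.84), *Adamts1* (1.10 and 0.808) and *Adamts5* (1.10 and 0.424) went the other way there, and the remaining members were lower with *Cdkn2a*. In contractile-like ligation cells, with 10 and 3852 cells, *Mmp2* had 0.50 and 0.129. The mean of *Mmp2* was thus higher in cells with *Cdkn2a* in 4 of these 5 classes and lower in chondrocyte-like cells. The libraries were pooled here, although *Mmp2* differed between them in 4 of these classes, and this gives no error over animals.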

How the data were processed

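Single-cell RNA-seq was measured in 2 plaque and 2 ligated carotid libraries. The authors aligned reads to GRCm38 with Cell Ranger (7.0.0 for plaques, 6.1.2 for ligation), filtered cells and normalised them in Seurat. The signal the authors deposited was UMIs per 10000 of each cell on a linear scale, and 100% of values were within 0.01 of whole UMIs, which were recovered. Here, cells were clustered in Seurat 5.3.0 (R 4.3.3) with 2000 variable genes, without integration, with 18 principal components and a resolution of 0.9 (plaques) or 17 and 0.2 (ligation), and with 70 protease and inhibitor genes left out. Clusters took a name from the marker list with the highest mean log2 ratio (at least 0.4, with at least 3 markers at 0.5 and at least 1 of its markers among the 10 leading genes, among which no other list had more), limits chosen once the clusters were known. Several of these lists hold markers that the study took from these libraries. Levels have Poisson, shares Clopper-Pearson and ratios delta-method 95% intervals, and all cover counting error only. The delta-method intervals were run on simulated Poisson counts, with the same rate of a gene in all cells of a library. Such counts have the spread that the intervals assume, so this run checks the calculation and not the spread between real cells. For correlations, cells were thinned to 8000 (plaques) or 5000 UMIs, which left out 92, 122, 325 and 154 cells of the ApoE-/-, Trf2T188A/ApoE-/-, control and Trf2T188A libraries. Scrublet (scanpy 1.11.5) marked at most 0.215% of a library as doublets and was taken not to have worked, so doublets were kept, and leaving out the 5% of cells with its highest scores was an alternative. Named genes were the members, the 3 highest and 3 lowest of the other listed genes per comparison, and the 3 genes most like each member. The members, lists and rules were chosen with earlier results of these data known. Levels and intervals were computed with numpy 2.4.6 and scipy 1.17.1 in Python 3.11.15, with tables read by pandas 2.3.3.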

Additional observations from a re-analysis of the deposited data

Results flagged for a closer look

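In plaques, 4 members differed between the genotypes in opposite directions in 2 classes, each past the fold of 0.25 on the log2 scale. The share of all genes that did so was not computed, so this count does not set the members apart from other genes. *Mmp3* had a log2 ratio of Trf2T188A/ApoE-/- over ApoE-/- of 1.77 in fibromyocyte-like and −0.70 in acute phase-like cells. *Timp1* had 1.0 in *Adamtsl1* cells (0.40 without the cells of highest doublet score) and −0.73 in chondrocyte-like cells. *Mmp2* had 0.42 in fibromyocyte-like and −0.31 in chondrocyte-like cells. *Adamts5* had 0.30 in *Pln Notch3* cells and −0.44 in acute phase-like cells, and the interval of the former, −0.02 to 0.61, included 0, with 0.13 in thinned cells. With 1 library per genotype, the difference between the classes was not tested for any of them.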

How the results depend on the processing

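The 78 differences past their fold were recomputed 791 times, of which 789 kept their direction and 721 stayed past the fold. *Adamts1* turned from −0.27 to 0.088 in chondrocyte-like plaque cells with summed UMIs and no pseudocount, and from 0.31 to −0.080 in myeloid-like ligation cells without the highest doublet scores. The cause was not tested. With a difference of mean log2 values, the calls between plaque states went from 31 in the named classes to 20, between ligation states from 15 to 8 and between ligation genotypes from 8 to 5. With a pseudocount of 0.1 they were 31 between plaque genotypes (18 with 1), 26 between ligation states and 17 between ligation genotypes, and with summed UMIs 34, 29 and 21. Lower pseudocounts let low genes reach the fold. The shares of all genes past the fold under these settings were not computed, so the counts describe the members alone. *Mmp3* between the genotypes in fibromyocyte-like plaque cells ranged from 0.45 (mean of log2 values) to 3.43 (summed UMIs), and was 0.68 at the lower clustering resolution, where acute phase-like cells joined the class, and 1.96 without the highest cell of each library, an alternative chosen after seeing the data. In *Itih4 Wnt16* cells it was −0.30 without that cell. *Timp1* in *Adamtsl1* cells was 0.40 without the highest doublet scores. *Mmp2* and *Ctsk* in de-differentiated ligation cells were 0.040 and 0.048 at the lower resolution. Without *Timp3* the TIMP to MMP ratios were 4.48 and 3.10 (ApoE-/- and Trf2T188A/ApoE-/-) and 4.96 and 4.52 (control and Trf2T188A), and without *Mmp3*, an alternative added after seeing the data, 12.7 and 10.9, and 11.3 and 10.3. The Spearman correlation of *Mmp2* with *Timp1* in plaques was 0.49 at full depth and −0.028 in contractile-like cells, and that of *Mmp2* with *Timp2* after ligation 0.27 and 0.097. Ligation states could not be compared at the lower resolution, which left no contractile-like class. No replicate could be left out. No paired analysis was possible because there was 1 library per genotype in each experiment. Depth limits *Adamts4* and, after ligation, *Mmp3*.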
